A study of Mus musculus with 12 samples.

Results

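The genes described here are 10 regulators of epithelial identity, chosen by symbol from the deposited expression table: the epithelial splicing regulators Esrp1 and Esrp2, the Grainyhead-like transcription factors Grhl1, Grhl2 and Grhl3, the zinc finger repressors Ovol1 and Ovol2, the ETS factor Elf3 and the membrane-anchored serine proteases Prss8 (prostasin) and St14 (matriptase). Each symbol matched 1 gene of the table, so the 10 members are 10 of 54446 genes. RNA was measured in E14 mouse embryonic stem cells in 4 groups of 3 libraries. Undifferentiated cells (mESC) came from cultures with serum, the cytokine LIF and irradiated mouse embryonic fibroblasts as feeders, so these libraries can hold feeder RNA. The other groups are differentiated cells sorted by reporters for T (Brachyury), a factor of the primitive streak and early mesoderm, and SOX17, a factor of endoderm: T+, SOX17+/T+ (double-positive) and SOX17+. The labels give neither the time of differentiation nor the separate origin of the 3 libraries, so the spread behind each p-value may be technical. Values are length-corrected relative abundances (TPM, scaled to the same sum in each library), the depth behind them is unknown, and in bulk RNA fewer cells of a type and less RNA per cell cannot be told apart.

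ESRP proteins bind pre-mRNA and keep epithelial exon choices in genes such as Fgfr2, Cd44 and Ctnnd1. Grainyhead-like factors bind and open enhancers of epithelial adhesion genes, and OVOL proteins repress genes of the mesenchymal state, among them Zeb1. Prostasin and matriptase cleave proteins at the epithelial surface and are held in check by the inhibitors Spint1 (HAI-1) and Spint2 (HAI-2). Cells leave the epithelial epiblast through the primitive streak by an epithelial to mesenchymal transition, and definitive endoderm then becomes an epithelium again, so these genes are of interest in populations that carry T, SOX17 or both.

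The labelled populations held their defining markers. The 6 pluripotency markers summed to between 3040 and 3101 TPM in mESC and to 14.2 to 126 TPM in the sorted libraries. The 6 streak and mesoderm markers summed to 330 to 403 TPM in T+, 127 to 181 TPM in double-positive and 20.2 to 34.9 TPM in SOX17+, and the 6 definitive endoderm markers to 96.1 to 134, 267 to 310 and 362 to 419 TPM. T and Sox17 are in these lists and were used for the sort. Not all endoderm markers followed their sum: 3 of the 6 were called higher and 2 lower in SOX17+ than in T+, the latter being Cxcr4 (65.1 ± 4.22 to 37.2 ± 4.69 TPM) and Gsc (3.72 ± 0.897 to 1.65 ± 0.824 TPM), and Cer1 had its highest mean in double-positive cells. The 10 fibroblast markers summed to 2600 to 3248 TPM in mESC and 49.3 to 85.3 TPM in the sorted libraries. Lum and S100a4 were listed at 0 in all SOX17+ libraries, but others remained. In SOX17+ against T+, 2 of the 10 were called higher and 4 lower. Col1a2 had means of 2.72 TPM in T+, 9.80 TPM in double-positive and 18.3 TPM in SOX17+, and Col1a1 of 34.6, 23.4 and 17.7 TPM. Markers of other epithelia moved in part. The 7 visceral endoderm markers summed to 5.5 to 7.21 TPM in T+, 12.02 to 14.2 TPM in double-positive and 109 to 123 TPM in SOX17+. Ttr (73.5 ± 8.33 TPM) and Hnf4a (29.5 ± 1.29 TPM) made up most of the SOX17+ sum. Of the 6 tested, 5 were called higher and 0 lower in SOX17+ than in T+. In double-positive against T+, 3 were called higher and 1 lower. Both tested genes of the 6 surface ectoderm markers were called higher in SOX17+ than in T+ (Perp 18.1 ± 1.61 to 35.5 ± 1.26 TPM, Tfap2a 1.61 ± 0.326 to 6.44 ± 0.733 TPM). Perp was higher still in double-positive cells (52.4 ± 1.27 TPM). Krt5, Krt14 and Trp63 of the same list stayed below 1 TPM in all 12 libraries. Krt15, also not tested, had means of 0.908 TPM in T+ and 0.357 TPM in SOX17+. The 7 trophoblast markers summed to 57.1 to 85.2 TPM in the sorted libraries, where Elf5 and Prl3d1 were listed at 0. Of the 5 tested, 2 were called higher in SOX17+ than in T+ and 3 lower. The higher ones were Krt7 (0.885 ± 0.232 to 8.05 ± 1.70 TPM) and Gata3 (14.7 ± 1.25 to 21.3 ± 1.06 TPM). Cdx2, the largest part of the sum, went from 48.3 ± 9.82 to 33.9 ± 5.07 TPM. The 7 blood and endothelial markers summed to 31.0 to 35.2 TPM in T+ and 124 to 210 TPM in SOX17+. Of these, 6 were called higher in SOX17+ than in T+ and 1 lower (Kdr, 27.9 ± 1.42 to 18.6 ± 2.26 TPM). Kdr held most of the T+ sum, and Hbb-bh1, at 89.5 ± 46.0 TPM, the largest part of the SOX17+ sum. Within a group, libraries correlated at Pearson's r = 0.995 to 0.997 across tested genes, which are not independent replicates.

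Of the 9 members tested, 8 were higher in SOX17+ than in T+ cells and Grhl3 was lower. Prss8 stood at 7.65 times its T+ mean, St14 at 5.36 times, Esrp1 at 4.87 times and Ovol2 at 14.1 times. A gene was tested if it reached 1 TPM in at least 3 of the 12 libraries, which 9 members did. Ovol1 did not, and its mean in SOX17+ was 7.74 times that in T+ at levels below 1 TPM. The test was limma on log2(TPM + 1) over 16097 genes, with Benjamini-Hochberg adjustment and a gene called at an adjusted p under 0.05. Between SOX17+ and T+, 8 members were called higher, against 25.4% of all tested genes, and 1 lower, against 29%. The 8 also rose from T+ to double-positive cells (12.6% of all genes were called higher). From double-positive to SOX17+ cells 7 members rose and 1 fell, against 19.8% and 16.8% of all genes, and Elf3 was not called. In each of these calls the 3 libraries of 1 group all lay above the 3 of the other, a separation that 27.7% of all genes showed upward and 32.8% downward from T+ to SOX17+, 17.5% and 25.1% from T+ to double-positive, and 23.9% and 20.8% from double-positive to SOX17+. Fold changes below are given on the log2(TPM + 1) scale with the fit's standard error after ±, a scale that understates changes of genes near or below 1 TPM.

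**Figure D1:**
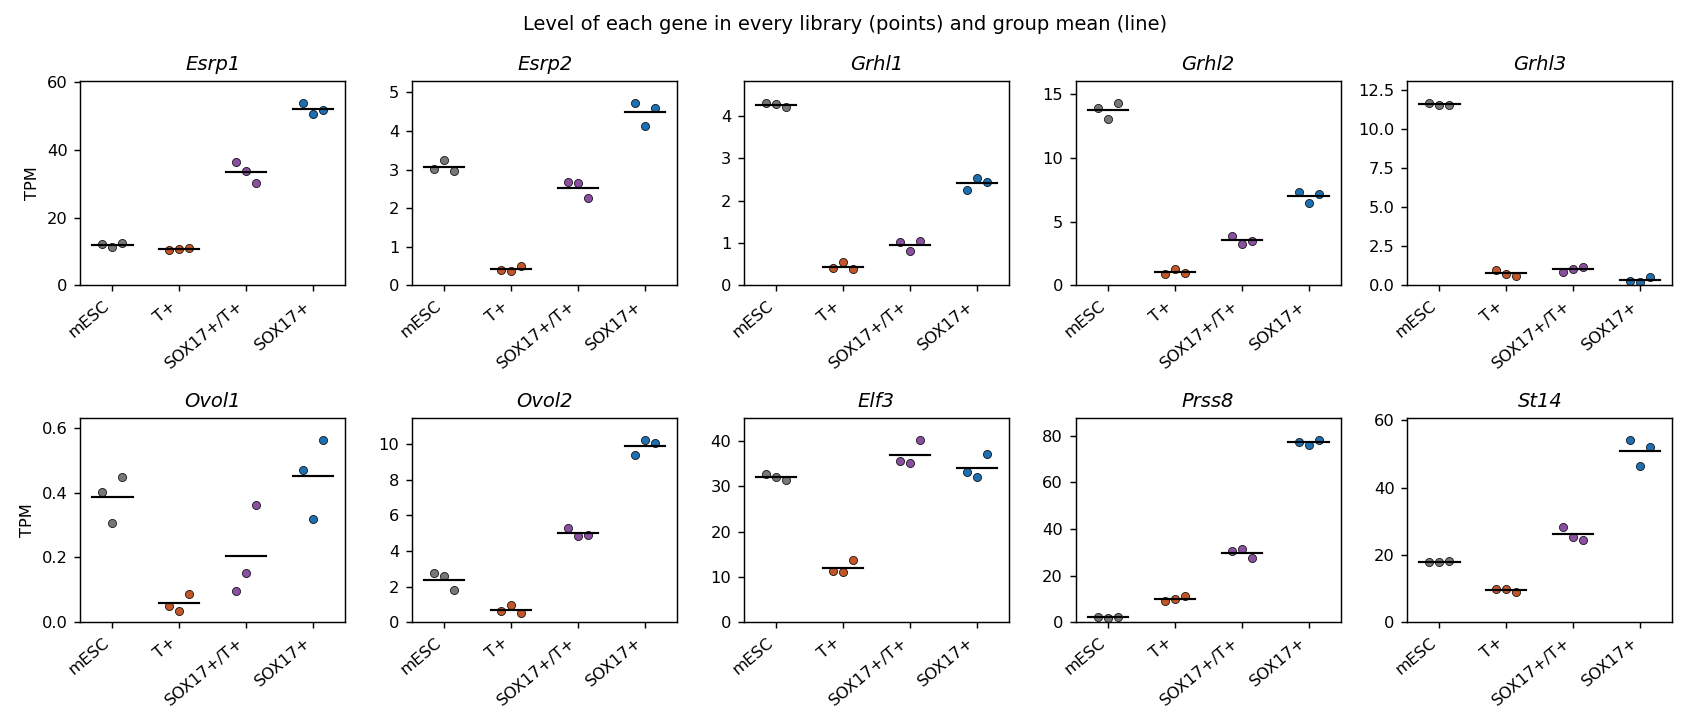
Level of each of the 10 genes in TPM (vertical axis, from 0, with its own scale for each gene) in the 3 libraries of each group (points; the line is the group mean). Esrp1, Ovol2, Prss8 and St14 are highest in the SOX17+ libraries, the 3 Grainyhead genes are highest in mESC, and Elf3 is about as high in double-positive as in SOX17+ libraries.

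Of the splicing regulators, Esrp1 was the more abundant in all 12 libraries. Esrp1 (chromosome 4, 11331933 to 11386783 on the minus strand in GRCm38) was listed at 12.3, 11.3 and 12.4 in mESC, at 10.5, 10.6 and 10.9 in T+, at 36.4, 33.7 and 30.1 in double-positive and at 53.7, 50.5 and 51.6 TPM in SOX17+ libraries, in the order of replicates 1, 2 and 3. The double-positive and SOX17+ libraries were high and did not overlap with each other or with the other groups. Esrp1 rose by 2.18 ± 0.06 from T+ to SOX17+ (limma, adjusted p = 2.3e-11), by 1.56 ± 0.06 from T+ to double-positive (adjusted p = 4.1e-09) and by 0.63 ± 0.06 from double-positive to SOX17+ (adjusted p = 7.3e-06). Against mESC it was 2.03 ± 0.06 higher in SOX17+ (adjusted p = 3.6e-12) and 1.40 ± 0.06 higher in double-positive cells (adjusted p = 1.6e-10). T+ and mESC were close: the call of -0.15 ± 0.06 (adjusted p = 0.039) was lost when libraries were scaled by median of ratios (-0.02, adjusted p = 0.81), and it was also lost on leaving out any 1 of the 6 libraries of these groups other than mESC replicate 2.

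Esrp2, the second ESRP paralog, showed the same order among the sorted groups at a lower level. It lies on chromosome 8 (106130319 to 106136974, minus strand) and was listed at 3.02, 3.24 and 2.96 in mESC, at 0.412, 0.363 and 0.517 in T+, at 2.67, 2.65 and 2.26 in double-positive and at 4.73, 4.13 and 4.59 TPM in SOX17+. All 3 T+ libraries were low, below 1 TPM. Esrp2 rose by 1.94 ± 0.08 from T+ to SOX17+ (limma, adjusted p = 3.9e-10), by 1.30 ± 0.08 to double-positive (adjusted p = 9.8e-08) and by 0.64 ± 0.08 between the last 2 (adjusted p = 3.9e-05). With a pseudocount of 0.1 the first 2 of these changes were 3.12 and 2.31. Unlike Esrp1, it was lower in T+ than in mESC (-1.51 ± 0.08, adjusted p = 6.7e-10), and it was slightly higher in SOX17+ than in mESC (0.43 ± 0.08, adjusted p = 2.1e-04). The double-positive level lay near that of mESC, with a call of -0.21 ± 0.08 (adjusted p = 0.025) whose sign turned under quantile normalization (0.09). The Esrp1 level was 3.91 ± 0.376 times the Esrp2 level in mESC, 25.2 ± 4.09 times in T+, 13.2 ± 0.461 times in double-positive and 11.6 ± 0.544 times in SOX17+ (SD, n = 3). ESRP transcript was therefore mostly Esrp1 in all 4 groups and most so in T+ cells, where the Esrp1 level was close to that of mESC. The ratios of the 4 groups did not overlap. The T+ ratio divides by Esrp2 values below 1 TPM, whose depth is unknown.

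Between T+ and SOX17+, the totals of genes whose exons ESRP proteins regulate changed by small amounts apart from Tcf7l2. Of 11 such genes, all tested, 3 were called higher and 7 lower in SOX17+ than in T+, with a median of -0.24 against -0.03 over all genes. The largest changes were in the WNT effector Tcf7l2 (1.18 ± 0.09), the FGF receptors Fgfr1 (-0.48 ± 0.08) and Fgfr3 (-0.33 ± 0.08) and the exocyst subunit Exoc7 (-0.31 ± 0.05). Fgfr2, singled out after its values were seen because its exon switch is the classic ESRP target, stood at 33.8 ± 3.64 TPM in T+, 32.1 ± 3.21 TPM in double-positive and 28.4 ± 2.56 TPM in SOX17+ and was not called between any of them. In mESC it stood at 10.6 TPM, and T+ minus mESC was 1.58 ± 0.10 (limma, adjusted p = 7.1e-09). Against mESC other totals of the list also differed widely: in T+ cells Fgfr3 was 3.36 ± 0.08 higher, while Cd44, a cell surface receptor also high in fibroblasts, was at -3.31 ± 0.08 and the actin regulator Enah at -1.65 ± 0.07, all called and chosen after their values were seen. In each single step, from T+ to double-positive and from there to SOX17+, 7 of the 11 were not called. Gene totals do not show which exons were used, so the splicing itself was not measured here. Of 12 other splicing regulators 11 matched the table, and 4 were higher and 4 lower in SOX17+ than in T+ (median -0.03). Rbm47, an RNA-binding protein, went with the ESRP genes: it stood at 2.4 ± 0.315 TPM in T+, 7.92 ± 0.773 TPM in double-positive and 14.4 ± 0.728 TPM in SOX17+ (SOX17+ minus T+ 2.19 ± 0.08). Mbnl1 also rose (0.50 ± 0.10), while Rbm24, a splicing factor of muscle, and Khdrbs3, of the STAR family, fell by 2.15 ± 0.11 and 1.81 ± 0.06.

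The 3 Grainyhead-like genes differed from the ESRP genes in that all were highest in mESC, and they differed from each other among the sorted cells. Grhl2 (chromosome 15, 37233036 to 37363569, plus strand), the family member of simple epithelia, was listed at 13.96, 13.1 and 14.3 in mESC, at 0.879, 1.27 and 1.02 in T+, at 3.89, 3.26 and 3.48 in double-positive and at 7.35, 6.48 and 7.18 TPM in SOX17+. The 4 groups did not overlap, and the SOX17+ mean was 0.508 of that in mESC. Grhl2 rose by 1.96 ± 0.09 from T+ to SOX17+ (limma, adjusted p = 6.5e-10), with 1.15 ± 0.09 of this to double-positive (adjusted p = 5.7e-07) and 0.82 ± 0.09 from there (adjusted p = 8.5e-06). Against mESC it was -2.85 ± 0.09 in T+ (adjusted p = 2.2e-12) and -0.89 ± 0.09 in SOX17+ (adjusted p = 3.7e-07). Grhl1 (chromosome 12, 24572283 to 24617391, plus strand) followed the same order at lower levels, with 4.3, 4.27 and 4.2 in mESC, at 0.412, 0.553 and 0.377 in T+, at 1.02, 0.823 and 1.06 in double-positive and at 2.24, 2.53 and 2.45 TPM in SOX17+. Its groups did not overlap either. Grhl1 rose by 1.24 ± 0.08 from T+ to SOX17+ (limma, adjusted p = 1.9e-08), or by 2.21 with a pseudocount of 0.1, and was -0.63 ± 0.08 in SOX17+ against mESC (adjusted p = 4.2e-06).

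Grhl3, the family member of skin barrier and neural tube closure, moved the other way. On chromosome 4 (135541888 to 135573630, minus strand), it was listed at 11.6, 11.5 and 11.5 in mESC, at 1.01, 0.75 and 0.612 in T+, at 0.862, 1.04 and 1.18 in double-positive and at 0.298, 0.244 and 0.543 TPM in SOX17+. T+ and double-positive libraries overlapped (0.18 ± 0.10, adjusted p = 0.22, 95% interval -0.04 to 0.41), and the SOX17+ libraries lay below both. Grhl3 fell by 0.40 ± 0.10 from T+ to SOX17+ (limma, adjusted p = 0.0056) and by 0.58 ± 0.10 from double-positive to SOX17+ (adjusted p = 7.1e-04), or by 0.98 and 1.33 with a pseudocount of 0.1. These are differences around or below 1 TPM, whose depth is unknown. The fall from mESC was large in every sorted group, from -2.63 ± 0.10 in double-positive to -3.21 ± 0.10 in SOX17+ (adjusted p = 3.3e-11 and 4.3e-12). As a family, the 3 genes summed to 29.6 ± 0.666 TPM in mESC, 2.3 ± 0.283 TPM in T+, 5.54 ± 0.356 TPM in double-positive and 9.77 ± 0.465 TPM in SOX17+. Grhl3 made up 39.1 ± 0.794% of this sum in mESC, 34.5 ± 8.23% in T+, 18.6 ± 3.2% in double-positive and 3.66 ± 1.47% in SOX17+, while Grhl2 made up 46.5 ± 1.21%, 46.1 ± 6.93%, 64.0 ± 3.29% and 71.7 ± 2.35%. The Grainyhead transcript of SOX17+ cells was therefore mostly Grhl2 with some Grhl1, and that of mESC was Grhl2 and Grhl3 in similar amounts.

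The sequences before the starts of Grhl1 and Grhl3 are shown because these family members went opposite ways between T+ and SOX17+, and that of Elf3 because it alone was level between double-positive and SOX17+ cells. Of the 10 members, Grhl1, Grhl3, Ovol2 and Elf3 matched RefSeq's promoter table (GRCm38.p6), and the 250 bases before each listed start were searched on both strands. Grhl1 had 2 entries there, of which only the first was searched and is shown. Capitals mark CAGGTG or its reverse complement CACCTG, the E-box that ZEB and SNAI repressors bind. Only the stretch outside annotated exons is printed, 5′ to 3′ on the gene's strand.
Grhl1, chr12:24572037-24572282, plus strand: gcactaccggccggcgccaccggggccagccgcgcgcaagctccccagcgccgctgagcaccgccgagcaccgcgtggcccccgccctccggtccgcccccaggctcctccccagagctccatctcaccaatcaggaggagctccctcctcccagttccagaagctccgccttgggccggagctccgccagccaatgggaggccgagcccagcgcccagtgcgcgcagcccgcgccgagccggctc
Grhl3, chr4:135573633-135573882, minus strand: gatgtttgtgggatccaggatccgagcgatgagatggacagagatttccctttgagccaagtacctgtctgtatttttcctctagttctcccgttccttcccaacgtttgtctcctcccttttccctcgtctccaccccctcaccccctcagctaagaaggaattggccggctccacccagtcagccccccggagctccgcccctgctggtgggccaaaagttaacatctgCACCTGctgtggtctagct
Elf3, chr1:135258569-135258722, minus strand: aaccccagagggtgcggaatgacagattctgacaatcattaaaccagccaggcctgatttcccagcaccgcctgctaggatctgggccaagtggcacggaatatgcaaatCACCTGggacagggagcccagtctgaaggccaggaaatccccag
The 250 bases held 27 CpG in Grhl1, 20 in Ovol2, 8 in Grhl3 and 8 in Elf3, against a median of 6 and an interquartile range of 2 to 16 over 27018 promoters. The Ovol2 window lies wholly, and those of Elf3 and Grhl1 in part, within the gene spans given in this report. These counts are thus not all of sequence before the gene. The Ovol2 window had no stretch outside annotated exons to print. The E-box was found in Grhl3 and Elf3, that is in 2 of the 4 members with an entry and in 17.1% of all promoters. The letters AACCNGTT (Grainyhead), CCGTTA (OVOL), ACAATG (SOX), TCACACCT (T-box) and CGGAAGT (ETS) were found in 0 of the 4 and in 1.71%, 2.17%, 11%, 1.14% and 4.99% of all. The E-box and T-box letters can overlap in part. Such a match is a string of letters and no measured binding site.

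The OVOL genes encode repressors that hold the epithelial state. Ovol2 (chromosome 2, 144305175 to 144332146, minus strand) was listed at 2.78, 2.6 and 1.81 in mESC, at 0.61, 0.971 and 0.523 in T+, at 5.3, 4.84 and 4.9 in double-positive and at 9.39, 10.3 and 10.1 TPM in SOX17+. The order T+, mESC, double-positive, SOX17+ held for every library without overlap. Ovol2 rose by 2.69 ± 0.12 from T+ to SOX17+ (limma, adjusted p = 7.0e-10), by 1.83 ± 0.12 to double-positive (adjusted p = 1.6e-07) and by 0.86 ± 0.12 from there (adjusted p = 8.5e-05). It was 1.69 ± 0.12 higher in SOX17+ than in mESC (adjusted p = 1.2e-08) and -0.99 ± 0.12 in T+ against mESC (adjusted p = 3.2e-06). Ovol1 (chromosome 19, 5549137 to 5560575, minus strand) stayed below 1 TPM in all 12 libraries and was not among the tested genes. It was listed at 0.401, 0.307 and 0.447 in mESC, at 0.0509, 0.0355 and 0.0881 in T+, at 0.0976, 0.152 and 0.36 in double-positive and at 0.47, 0.317 and 0.563 TPM in SOX17+. The T+ libraries were the lowest, and mESC and SOX17+ overlapped. Ovol2 thus supplied nearly all OVOL transcript in the double-positive and SOX17+ libraries.

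The mesenchymal factors that oppose this state ran the other way among the sorted cells. All 8 genes of that list were lower in SOX17+ than in T+ (median -1.38 against -0.03 over all genes), and all 8 were lower in SOX17+ than in double-positive cells (median -0.92). From T+ to double-positive cells 6 of the 8 fell and 2 were not called (median -0.60). Snai1, a repressor of Cdh1, stood at 66.4 ± 3.98 TPM in T+, 28.6 ± 2.9 TPM in double-positive and 11.3 ± 0.461 TPM in SOX17+. Zeb1 stood at 17.1 ± 1.14, 9.74 ± 0.591 and 5.79 ± 0.374 TPM, and Zeb2 at 17.4 ± 0.929, 10.2 ± 1.33 and 4.65 ± 1.15 TPM. The fold changes from T+ to SOX17+ were -2.45 ± 0.09 for Snai1, -2.17 ± 0.14 for Twist1, -1.72 ± 0.14 for Zeb2 and -1.41 ± 0.07 for Zeb1. In mESC, with feeder markers present, Zeb1 stood at 15.6 ± 1.07 TPM, near its T+ level (T+ minus mESC 0.12 ± 0.07, adjusted p = 0.14). The part of feeder RNA in that level was not tested.

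Elf3, an epithelial ETS factor, departed from the stepwise order. On chromosome 1 (135253575 to 135258568, minus strand), it was listed at 32.6, 32.0 and 31.3 in mESC, at 11.3, 11.01 and 13.8 in T+, at 35.5, 35.0 and 40.3 in double-positive and at 33.2, 32.0 and 37.1 TPM in SOX17+. T+ alone was low, and double-positive and SOX17+ libraries overlapped. Elf3 rose by 1.55 ± 0.08 from T+ to double-positive (limma, adjusted p = 3.2e-08) and by 1.44 ± 0.08 from T+ to SOX17+ (adjusted p = 9.3e-09). Between double-positive and SOX17+ the difference was -0.11 ± 0.08 (adjusted p = 0.33, 95% interval -0.29 to 0.07). Against mESC it was -1.35 ± 0.08 in T+ (adjusted p = 3.2e-09), 0.20 ± 0.08 in double-positive (adjusted p = 0.037) and 0.09 ± 0.08 in SOX17+ (adjusted p = 0.32). The last 2 depended on the scaling: with quantile normalization they were 0.44 and 0.31, both called, and the double-positive call ended without double-positive replicate 3 (0.14, adjusted p = 0.16) or without any 1 of the mESC replicates.

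The members took up different positions between T+ and SOX17+ in double-positive cells. On a scale where the T+ mean of log2(TPM + 1) is 0 and the SOX17+ mean is 1, double-positive libraries stood at 0.713 ± 0.061 for Esrp1, 0.68 ± 0.022 for Ovol2, 0.671 ± 0.05 for Esrp2, 0.592 ± 0.046 for St14 and 0.584 ± 0.051 for Grhl2 (SD, n = 3). Prss8 stood at 0.522 ± 0.035 and Grhl1 at 0.357 ± 0.076. Ovol1, below 1 TPM, was spread too widely to place (0.398 ± 0.359), and the double-positive means of Elf3 and Grhl3 did not lie between the other two. Esrp1, Ovol2 and Esrp2 do not differ in this order beyond their spread, nor do St14 and Grhl2, and no test was made on the order. That spread is of the double-positive libraries alone and leaves out the spread of T+ and SOX17+. Grhl1 had the lowest position of the 7 placed genes, with 0.438 when the pseudocount was 0.1. With that pseudocount Esrp2 (0.742) and Ovol2 (0.737) lay above Esrp1 (0.718), and Grhl2 (0.633) above St14 (0.599).

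**Figure D2:**
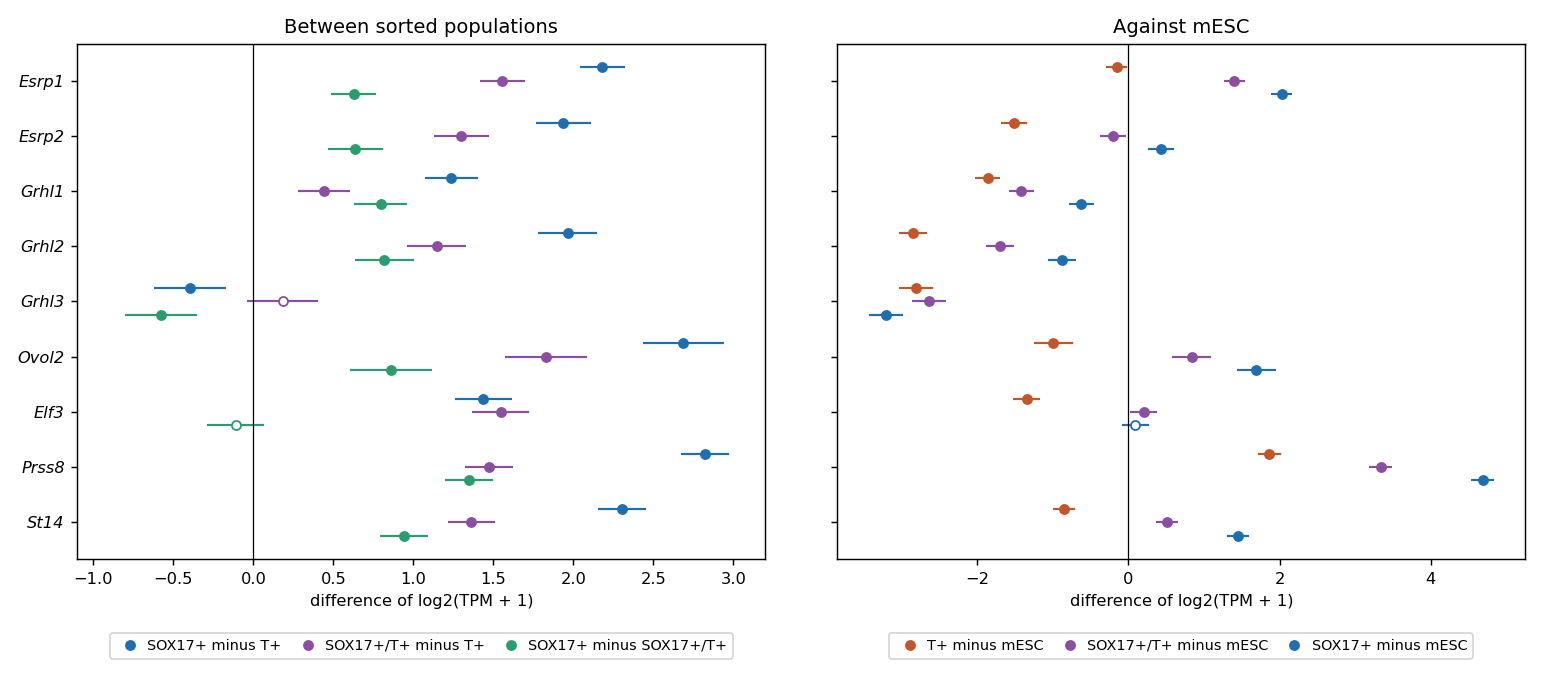
Differences of log2(TPM + 1) for the 9 tested genes with 95% intervals of the limma fit (bars), between sorted populations (left) and against mESC (right). Filled points were called at an adjusted p under 0.05 and open points were not. On the left all genes but Grhl3 lie to the right of 0 for SOX17+ minus T+, and on the right Prss8 lies furthest above 0 in all 3 comparisons while Grhl1, Grhl2 and Grhl3 lie below 0 in all 3.

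Of the membrane proteases, Prss8 had the highest level of the 10 genes in SOX17+ cells, and St14 stood close to Esrp1 there. Prss8 (chromosome 7, 127925716 to 127930104, minus strand) was listed at 2.12, 1.92 and 2.07 in mESC, at 9.26, 9.81 and 11.2 in T+, at 30.4, 31.4 and 27.4 in double-positive and at 77.4, 75.8 and 78.3 TPM in SOX17+. It was the only member higher in T+ than in mESC, and the 4 groups were separate. Prss8 rose by 2.82 ± 0.07 from T+ to SOX17+ (limma, adjusted p = 4.9e-12), in steps of 1.47 ± 0.07 to double-positive (adjusted p = 1.0e-08) and 1.35 ± 0.07 from there (adjusted p = 2.2e-08). Against mESC it was 1.86 ± 0.07 higher in T+ (adjusted p = 1.8e-11) and 4.69 ± 0.07 higher in SOX17+ (adjusted p = 3.1e-15), where its mean was 37.9 times that of mESC. St14 (chromosome 9, 31089402 to 31131853, minus strand) was listed at 17.8, 18.0 and 18.1 in mESC, at 9.82, 9.82 and 8.89 in T+, at 28.4, 25.3 and 24.5 in double-positive and at 54.3, 46.5 and 52.2 TPM in SOX17+. Its groups were separate too, with T+ below mESC. St14 rose by 2.30 ± 0.07 from T+ to SOX17+ (limma, adjusted p = 2.4e-11), by 1.36 ± 0.07 to double-positive (adjusted p = 1.8e-08) and by 0.94 ± 0.07 from there (adjusted p = 3.7e-07). Against mESC it was -0.85 ± 0.07 in T+ (adjusted p = 5.3e-08) and 1.45 ± 0.07 in SOX17+ (adjusted p = 1.9e-10).

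The balance of the proteases, and of proteases to inhibitors, differed between groups. Prss8 stood at 0.114 ± 0.00612 of the St14 level in mESC, 1.07 ± 0.168 in T+, 1.14 ± 0.0885 in double-positive and 1.52 ± 0.105 in SOX17+ (SD, n = 3), with T+ and double-positive overlapping. Prss8 and St14 together came to 20.0 ± 0.125 TPM in mESC, 19.6 ± 0.496 TPM in T+, 55.8 ± 3.5 TPM in double-positive and 128 ± 5.1 TPM in SOX17+, so mESC and T+ held similar sums made of different genes. The inhibitors Spint1 and Spint2 together came to 171 ± 3.57, 78.3 ± 1.22, 227 ± 14.3 and 387 ± 12.03 TPM in the same order. The inhibitor sum was thus the larger in every library. The ratio of the 2 proteases to the 2 inhibitors was 0.117 ± 0.0024 in mESC, 0.25 ± 0.00311 in T+, 0.246 ± 0.00353 in double-positive and 0.331 ± 0.0085 in SOX17+, with overlap only between T+ and double-positive. No test was made on these ratios.

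**Figure D3:**
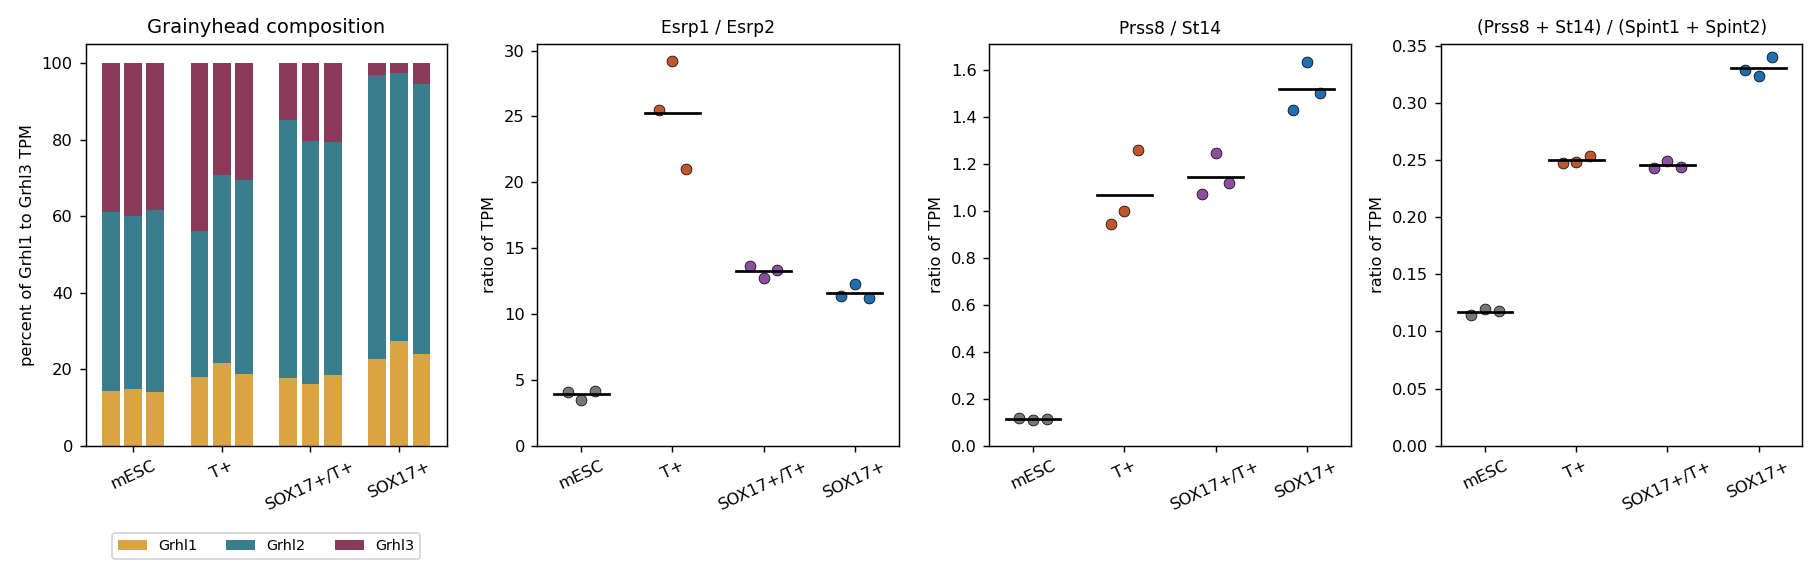
Left, share of Grhl1, Grhl2 and Grhl3 in their summed TPM for each of the 3 libraries of a group (stacked bars, percent). The other panels give ratios of TPM for each library (points; the line is the group mean): Esrp1 over Esrp2, highest in T+ at a mean of 25.2, Prss8 over St14, lowest in mESC at 0.114, and the 2 proteases over the 2 inhibitors, highest in SOX17+ at 0.331.

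Most of the other tested genes of the membrane protease system moved with Prss8 and St14. Of the 16 listed genes 8 were tested, and 7 were called higher and 0 lower in SOX17+ than in T+ (median 1.39), with F2rl1 (PAR2), named after its values were seen, the remaining one (38.1 TPM in T+ and 39.9 TPM in SOX17+). Tmprss2, a transmembrane protease, rose by 4.37 ± 0.08 and hepsin (Hpn), another, by 2.50 ± 0.08, from 6.76 ± 0.769 to 42.8 ± 1.32 TPM. From T+ to double-positive cells 6 of the 8 rose, and from there to SOX17+ 7 rose. The inhibitors Spint2 and Spint1 rose from T+ to SOX17+ by 2.41 ± 0.05 and 1.79 ± 0.05. Also named after their values were seen, the protease genes Tmprss4, Tmprss6, Tmprss13 and Prss22 and the channel subunit Scnn1a had means below 1 TPM in every group. So did the other untested genes, Hgf, Hgfac and Mst1r. From T+ to SOX17+ the means of Hgf (0.935 to 0.168 TPM), Prss22 (0.616 to 0.0962 TPM) and Mst1r (0.253 to 0.126 TPM) fell. Those of Tmprss6, Tmprss13, Scnn1a and Hgfac rose, and Tmprss4 was listed at 0 in both groups.

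Reported targets of Grainyhead factors were also higher in SOX17+ than in T+ cells, in 9 of 10 listed genes (median 1.81). They include Ap1m2, a subunit of epithelial vesicle sorting (3.33 ± 0.10), the small GTPase Rab25 (3.01 ± 0.10), the adhesion gene Epcam (2.73 ± 0.05) and Cdh1 (E-cadherin, 2.33 ± 0.08). The exception was the claudin Cldn3 (-0.36 ± 0.11), named after its values were seen. In each step, from T+ to double-positive and from there to SOX17+, 8 of the 10 rose and 0 fell (medians 1.15 and 0.76). In T+ against mESC 2 were higher and 7 lower (median -1.26), where 34.5% and 49.5% of all genes were. In SOX17+ against mESC, where Grhl2 was lower, 7 of the 10 were higher and 2 lower (35.4% and 50% of all genes). The 2 lower, named after their values were seen, were the transglutaminase Tgm1 (40.1 ± 1.9 to 1.01 ± 0.162 TPM) and Cldn3 (4.82 ± 0.312 to 3.17 ± 0.624 TPM). Rab25 went from 2.76 ± 0.596 TPM in mESC to 44.1 ± 2.16 TPM in SOX17+, and Cdh1 stood at 183 ± 5.9 and 174 ± 17.0 TPM. Of 12 related CP2, ETS, OVO and other epithelial factors 8 were tested, and 4 were higher and 2 lower in SOX17+ than in T+ (median 0.82). Tfcp2l1, a CP2 factor of naive stem cells, rose by 1.54 ± 0.07, Tfap2a by 1.51 ± 0.11 and the ETS gene Spdef by 1.44 ± 0.12. Spdef was low, at 0.109 ± 0.0513 TPM in T+ and 2.04 ± 0.517 TPM in SOX17+. It passed the filter only through double-positive and SOX17+ libraries, so its call is no separate evidence of a rise. The ETS genes Elf5 and Ehf, and Ovol3, named for their low values, had means below 1 TPM in every group.

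**Figure D4:**
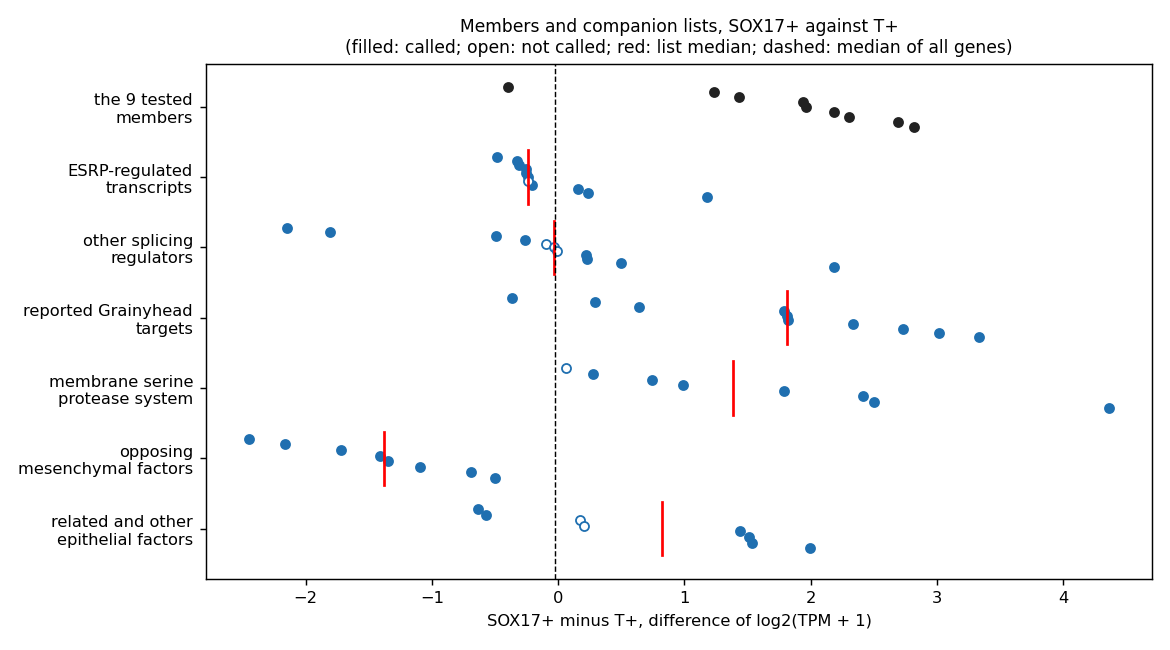
SOX17+ minus T+ difference of log2(TPM + 1) for the 9 tested members and the tested genes of 6 companion lists (each point a gene; filled, called at an adjusted p under 0.05; red line, list median; dashed line, median of all genes, -0.03). The reported Grainyhead targets and protease genes lie mostly to the right of the dashed line, the 8 mesenchymal factors all to its left, and the ESRP-regulated transcripts close to it except Tcf7l2 at 1.18.

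Against mESC members were called in both directions. In SOX17+ cells 5 members were called higher (Esrp1, Esrp2, Ovol2, Prss8 and St14) and 3 lower (Grhl1, Grhl2 and Grhl3), against 35.4% and 50% of all genes. In double-positive cells 5 were higher and 4 lower, against 34.9% and 50.3%, with the calls of Esrp2 and Elf3 dependent on the scaling or on single libraries as given above. In T+ cells only Prss8 was higher and the other 8 tested members were lower, against 34.5% and 49.5%, and the Esrp1 call, at -0.15, lay at the median of all genes and was lost with median-of-ratios and quantile scaling. The 3 comparisons share their mESC libraries. The median over all genes was -0.17 to -0.19 as deposited, -0.04 with median-of-ratios scaling and 0.05 to 0.07 with quantile normalization, so values against mESC are read relative to that shift. Fibroblast markers, highest in mESC, and mitochondrially encoded transcripts, at 4.01% to 4.34% of TPM in mESC and 5.71% to 6.93% in the sorted libraries, moved with these comparisons. Among the sorted groups, the sums of visceral endoderm and of blood and endothelial markers rose from T+ to SOX17+ with most members, with the exceptions given above. The part of each of these in the results was not tested.

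By Pearson's r of log2(TPM + 1) with 10898 candidate genes, the genes most like Prss8 over the 12 libraries were the carbonic anhydrase Car4 (r = 0.999) and Zbtb16 (0.998). Car4 went from 8.17 TPM in mESC to 45.6 TPM in T+, 165 TPM in double-positive and 632 TPM in SOX17+. Those most like Esrp1 were Tmem30b (0.998), Calcr (0.996) and the polarity gene Crb3 (0.996), and those most like St14 were Sorl1 (0.996), Arhgef16 (0.995) and the junction gene F11r (0.995). For Grhl2 they were Sh3gl2, Map7 and Bcam (0.996 each), for Esrp2 Camsap3 (0.997), Cyp1b1 (0.995) and Cldn4 (0.994), and for Ovol2 Myl6b (0.986), Srgap3 (0.986) and Pdpn (0.985). Grhl1 was most like Atp1b1 (0.996), Tbc1d10a (0.995) and Sh3bgrl3 (0.995), Grhl3 most like Gtf2e1 (0.996), Ltbp4 (0.995) and Tfap2c (0.995), and Elf3 most like Trh (0.989), Mfng (0.976) and Prr7 (0.964). Within the 9 sorted libraries alone, Spint2 was the gene most like Esrp1 (0.999) and the second most like Esrp2 (0.998), and Rab25 was the third most like Ovol2 (0.996). The libraries fall into 4 groups, so these values mostly reflect the group means.

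Of 20 neighbours of the members, the nearest named gene on each side, 5 were called higher, 6 lower and 6 not called in SOX17+ against T+, and 3 were not tested. Over all tested genes 25.4% were called higher and 29% lower, so these counts are near the background. Prss36, a protease gene 2534 bases from Prss8, stood at 5.59 TPM in T+ and 6.2 TPM in SOX17+ (0.13, adjusted p = 0.24). Genes on the opposite strand overlap the ends of Esrp2 (Nfatc3) and Prss8 (Kat8). Nfatc3 stood at 30.2 to 31.0 TPM and Kat8 at 22.3 to 24.3 TPM in the group means. The other overlapping transcripts had means of at most 1.39 TPM. Some of them, chosen after their values were seen, had the order of the member they overlap among the sorted groups. In T+, double-positive and SOX17+, 1810019D21Rik over Esrp2 stood at 0.106, 0.326 and 0.956 TPM. Gm16136 over the start of Grhl2 stood at 0.347, 0.474 and 1.39 TPM, and 1700108N11Rik over Ovol2 at 0, 0.0217 and 0.0624 TPM. The part of shared reads in these values was not tested. The libraries were stranded per the labels, and the sources used here do not give whether the quantification used the strand.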

How the data were processed

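RNA of 12 libraries, 3 in each of 4 groups, was measured by stranded paired-end RNA sequencing, per the labels' protocols. The authors deposited 1 table of TPM values, with 1 column per library. The tools cutadapt, STAR and StringTie and the build mm10 (GRCm38) are listed in the submitters' processing notes, with no tool version. The sources used here give no annotation release and no filter. Since every library's TPM have 1 common total, depth is unknown and no count test was run.

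Of 54480 rows, 282 empty cells were set to 0, and 11 genes split over rows were summed, which left 54446 genes. Genes with at least 1 TPM in at least 3 libraries were kept (16097). With limma 3.58.1 (R 4.3.3), log2(TPM + 1) of the 12 libraries was fitted with a mean for each group (eBayes with trend and robust, 8 residual degrees of freedom, 2-sided), adjusted by Benjamini-Hochberg over all tested genes in each of 6 comparisons, after the step had been tested on simulated data. Table IDs with their coordinates equalled GENCODE vM21 for 53229 genes, and for every member but Ovol1.

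The members, the 6 companion lists and the 8 marker lists were chosen with earlier results of these data known. All members are named. From each companion list up to 4 called genes with the largest absolute change between SOX17+ and T+ are named. Likeness was ranked among genes with a group mean of at least 5 TPM, leaving out predicted genes and clones, and the 3 highest are named. Some genes that these rules select are not reported here. Exact values of 0 can be failed estimates, so no fold is given against a group listed at 0.

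Replicate numbers are shared by the groups. Deviations from the group means in same-numbered T+ and double-positive libraries had correlations of 0.204, 0.149 and 0.242 across genes. These were over 0.1 in every pair, which no other pair of groups reached. For double-positive and SOX17+ they were 0.046, 0.178 and 0.224. Over all pairs of groups, same-numbered libraries had positive correlations, from 0.005 to 0.242. Different-numbered libraries had correlations from -0.249 to 0.09. All groups may thus be paired by replicate number, T+ and double-positive most plainly. The fit behind the values given in the Results had no term for pairing, which entered only as the replicate block among the alternatives. Alternatives were another pseudocount, no filter, other scalings, another variance model, 2-group fits, a replicate block and leaving out each library.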

Additional observations from a re-analysis of the deposited data

How the results depend on the processing

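Over 756 recomputed fold changes of members, 735 kept direction and side of the threshold, 18 were no longer called, 2 became called and 1 turned sign. All of the 21 exceptions concern comparisons with mESC: Esrp1 in T+, Esrp2 in double-positive cells and Elf3 in double-positive and SOX17+ cells. The sign turned for Esrp2 in double-positive cells against mESC, from -0.21 to 0.090 with quantile normalization (adjusted p = 0.26). The replicate block was the only setting that took same-numbered libraries as paired. It covered the 9 sorted libraries for comparisons among them and all 12 for those against mESC. It left 8 members called higher and 0 lower in double-positive against T+ and changed no call of a member. In that comparison 5472 genes were called in all with the block, against 4578 without it. For SOX17+ against T+ the totals were 9419 and 8767, and for SOX17+ against double-positive 6664 and 5894. Leaving out each library in turn gave 8 members higher and 1 lower in SOX17+ against T+ throughout, 4 to 5 higher and 3 to 4 lower in double-positive against mESC, and 7 to 8 lower in T+ against mESC. With a pseudocount of 0.1, some changes of Grhl1, Grhl3, Esrp2 and Ovol2 that involve levels near or below 1 TPM were over 1.5 times as large. For Ovol2 this held only for T+ against mESC, and for Grhl3 only between sorted groups. Without the filter on low values, Ovol1 was 0.45 ± 0.09 higher in SOX17+ than in T+ (limma, adjusted p = 0.0026, over 33055 genes). Single TPM values below 1 have an unknown depth, which limits Ovol1 and Grhl3 most.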
